A study of Mus musculus with 43 samples.

Results

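Astrocytes and mature oligodendrocytes of the same mice were compared here. The members are 16 of the 43 RNA-seq libraries of the series, namely the astrocyte and the oligodendrocyte library of each of 8 mice (4 control and 4 Rag2-/-). They were chosen by label alone, as the mice of pairs 1, 3, 5 and 6 for which both libraries exist. Of 12 astrocyte libraries in the series, 4 came from mice without an oligodendrocyte library and entered an alternative fit only. Rag2 encodes a recombinase that lymphocytes need to assemble antigen receptors, so Rag2-/- mice lack mature B and T cells. All mice were 3 months old and of a colony on the C57BL/6J background, and cerebral cortex was used. The controls of pairs 1, 3 and 5 carried Rag2 +/-, and the control of pair 6 carried Rag2 +/+. Both mice of pairs 1 and 3 were male and both of pair 5 were female, while pair 6 joined a male control with a female Rag2-/- mouse. From one cell suspension per mouse, oligodendrocytes were held on plates coated with GalC hybridoma antibody, and astrocytes, taken last, on a plate coated with anti-HepaCAM.

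Astrocytes and oligodendrocytes descend from the same neural progenitors but do different work. Astrocytes clear glutamate, potassium and water from the extracellular space, store the glycogen of the brain, and release lactate and cholesterol-carrying lipoproteins. Oligodendrocytes wrap axons in myelin, a membrane rich in cholesterol and galactolipids and held together by a small set of abundant proteins, and they also store iron. The types are joined to each other by gap junctions in which each side contributes its own connexins. To describe what parts them, 425 genes were set out in 15 metabolic lists (277 genes) and 7 membrane lists (148 genes), of which 417 genes had enough counts to be tested. The 8 others (Slc16a3, Degs2, Plp2, Slc38a5, Tfr2, Ftmt, Gja4 and Ocln) were too low in both types.

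Between 8226701 and 11609986 counts fell on genes in the astrocyte libraries, and between 9009143 and 14936552 in the oligodendrocyte libraries. The mitochondrial genome gave 31.2% to 45.1% of them in astrocytes (median 34.4%) and 45.8% to 60.1% in oligodendrocytes (median 53.9%), and the share was lower in astrocytes in 8 of 8 mice (mean difference -17.2 points ± 6.16 SD, exact sign-flip permutation test over mice, two-sided p = 0.0078, the smallest that 8 mice allow, and 0.0086 adjusted over 11 such values). All libraries of a cell type were sequenced on the same lane, so lane and cell type cannot be told apart. Rag2 itself was listed at 0 counts in all 16 libraries, controls included, so it does not check the labels. The gene Iftap, whose span in the genome holds Rag2, was chosen after its values were seen. It held 34 to 156 counts in the 8 control libraries and 0 in all Rag2-/- libraries but 1, which held 2. In bulk libraries such as these, fewer cells of a type and less RNA per cell cannot be told apart.

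The labelled types carried their markers. Summed levels in CPM (counts per 1000000 counts on genes, after TMM scaling) of 10 astrocyte markers were 13306 to 16211 in the astrocyte libraries and 841 to 2687 in the oligodendrocyte libraries. For 10 oligodendrocyte markers the sums were 2853 to 5257 and 19462 to 28611 CPM. In CPM without the TMM factor, astrocyte markers in oligodendrocyte libraries stood at 6.43% ± 1.55 (SD, n = 8) of their level in astrocytes, and oligodendrocyte markers in astrocyte libraries at 24.5% ± 2.87 (SD, n = 8) of their level in oligodendrocytes. On the TMM scale of the sums these shares were 10.1% ± 4.47 and 16.8% ± 4.07 (SD, n = 8). Transcripts of each type were thus also counted in the libraries of the other, and in the mean more of the oligodendrocyte markers than of the astrocyte markers. On the TMM scale the control mouse of pair 6 and the Rag2-/- mouse of pair 5 had the other order. In the first, astrocyte markers summed to 2687 CPM in the oligodendrocyte library and 13649 CPM in the astrocyte library. Its oligodendrocyte markers summed to 2853 CPM in the astrocyte library and 23714 CPM in the oligodendrocyte library. In the same order, the second mouse had 1889 and 14478 CPM of astrocyte markers, and 3232 and 28168 CPM of oligodendrocyte markers. The part of this remainder in the size of the differences given here was not tested.

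Markers of further cell types lay mostly on the oligodendrocyte side. OPC markers (oligodendrocyte precursor cells) summed to 40.3 to 234 CPM in astrocytes and 388 to 1124 CPM in oligodendrocytes, and 7 of 8 were lower in astrocytes. Microglia markers summed to 72.7 to 309 and 300.4 to 1059 CPM, with 9 of 9 lower in astrocytes. Neuron markers summed to 217 to 634 CPM in astrocytes, 1041 to 1673 CPM in the oligodendrocyte libraries of pairs 1 and 3 and 2642 to 3448 CPM in those of pairs 5 and 6, and 10 of 10 were lower in astrocytes. Among endothelial markers the sum was 246 to 351 CPM in astrocytes against 2.81 to 28.5 CPM, nearly all of it from Slco1c1, a thyroid hormone transporter that astrocytes also make. Of 6 tested endothelial markers it alone was called. Without Slco1c1 the sum was 4.63 to 27.97 CPM in astrocytes and 2.26 to 16.9 CPM in oligodendrocytes, and the highest of the other 7 was Flt1 at 0.933 to 16.98 and 0.988 to 10.0 CPM. Mural and fibroblast markers summed to 89.8 to 132 and 7.79 to 103 CPM, led by Pdgfrb, and ependymal markers to 1.21 to 8.99 and 2.41 to 12.4 CPM. Newly formed oligodendrocyte markers summed to 327 to 457 and 1187 to 1875 CPM. Their 6 genes were divided, with 3 lower and 2 higher in astrocytes. Immediate early genes, which respond quickly to stimulation and handling, summed to 1375 to 1990 CPM in astrocytes and 880 to 1327 CPM in oligodendrocytes. The sum was higher in astrocytes in 8 of 8 mice. Of the 8 genes, 5 were higher and 1 lower in astrocytes, and 2 were not called. In the oligodendrocyte libraries more than the neuron markers were higher in pairs 5 and 6 than in pairs 1 and 3, since astrocyte markers summed to 1391 to 2687 against 841 to 1297 CPM, endothelial markers to 20.2 to 28.5 against 2.81 to 8.51 CPM, and mural and fibroblast markers to 37.9 to 103 against 7.79 to 11.6 CPM. The endothelial sums by pair include Slco1c1. Before the GalC plates the suspension had passed anti-CD45 plates for microglia, then anti-PDGFRα and O4 plates for OPCs. The part that neurons, OPCs and microglia have in genes higher in oligodendrocytes was not tested, and the order of levels over 4 cell types given further on bears on OPCs and microglia.

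**Figure D1:**
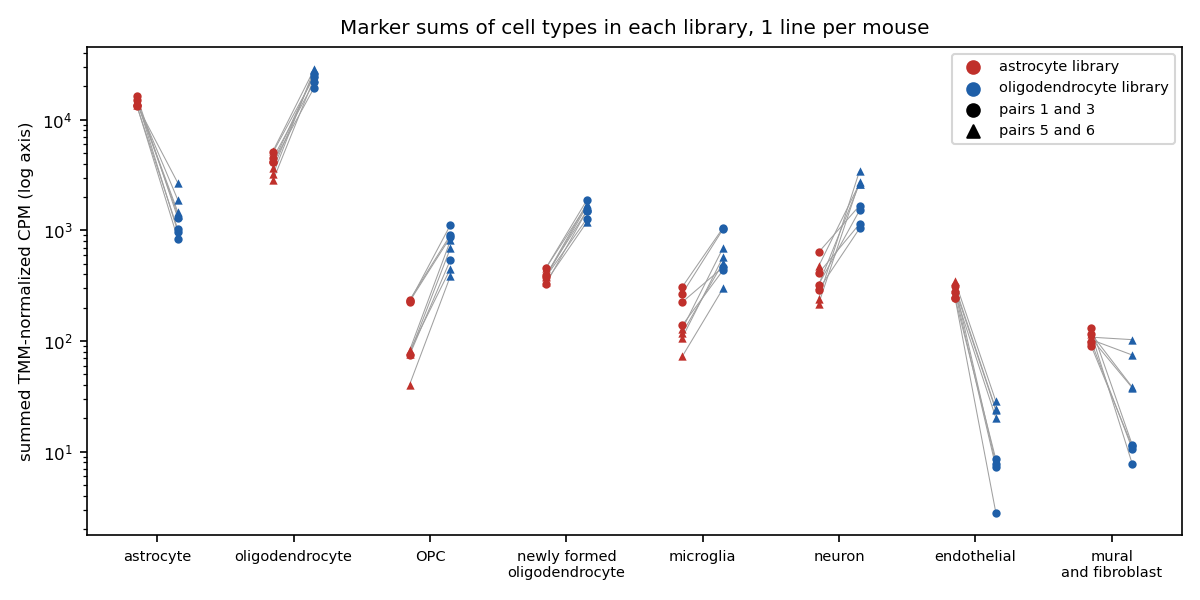
Summed level of each marker list (CPM after TMM scaling, log axis) in every library, 8 astrocyte and 8 oligodendrocyte libraries side by side, with circles for pairs 1 and 3 and triangles for pairs 5 and 6. Astrocyte markers sit at 13306 to 16211 CPM in astrocytes and oligodendrocyte markers at 19462 to 28611 CPM in oligodendrocytes, and the neuron, astrocyte, endothelial and mural markers of the oligodendrocyte libraries are higher in pairs 5 and 6 than in pairs 1 and 3.

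Counts of 3 immunoglobulin genes were higher in the oligodendrocyte libraries, a pattern found after the values were seen. Ighg3, an antibody heavy chain constant region, held 111 to 679 counts in each oligodendrocyte library and 0 to 2 in each astrocyte library. Igkc, the kappa light chain constant region, held 73 to 352 counts against 0 to 3, and 97.9% of its exonic bases are shared with another gene model. Ighm, the mu heavy chain, held 135 to 485 counts in oligodendrocyte and 42 to 111 in astrocyte libraries. Unlike the others, Ighm was highest in microglia, at a mean of 394 CPM of nuclear genes without TMM scaling, against 57.9 CPM in oligodendrocytes. On that scale Ighg3 stood at 0.017 CPM in microglia and 61.3 CPM in oligodendrocytes, and Igkc at 1.94 and 42 CPM. Ighg1 held 19 and 15 counts in the oligodendrocyte libraries of pair 6, 0 in the other 6 and 0 to 3 in astrocytes. In oligodendrocytes Ighg3 was at 111 to 380 counts in control and 220 to 679 in Rag2-/- mice, and higher in the Rag2-/- mouse of 4 of 4 pairs, whereas Igkc was higher there in 3 pairs and Ighm in 1, and these differences were not tested. Whether RNA of these genes came with the hybridoma antibody of the plates, or that of Ighm from microglia, was not tested. No member of the 22 lists is an immunoglobulin gene.

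Across 16971 genes tested in a paired fit with the mouse as a block (edgeR, quasi-likelihood test, call at a Benjamini-Hochberg adjusted p under 0.05), 3302 genes (19.5%) were higher in astrocytes and 2860 genes (16.9%) were higher in oligodendrocytes. Of the 417 members tested, 223 were higher in astrocytes, 99 were higher in oligodendrocytes and 95 were not called. With a difference of at least 4-fold required as well, the members numbered 113 and 43, beside 11.3% and 7.5% of all genes tested. Differences are given throughout as log2(astrocyte/oligodendrocyte), negative where oligodendrocytes were higher. The median difference was 0.23 over all genes, 1.16 over the metabolic genes and 0.29 over the membrane genes.

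Metabolic and membrane genes gave different counts. Among 271 metabolic genes tested, 161 were higher and 39 lower in astrocytes. Among 146 membrane genes tested, 62 were higher and 60 lower. All 8 astrocyte libraries lay apart from all 8 oligodendrocyte libraries for 234 members (168 higher and 66 lower in astrocytes), beside 15.5% of all genes tested. Of the 322 called members, 284 differed in the same direction in 8 of 8 mice. A call in a paired fit over the same mice favours this, and no share over all called genes is given beside it. The scaling sets where 0 lies. Scaled by total counts, with no correction for composition, the median of all genes moved to 0.80, the share of calls higher in astrocytes moved from 53.6% to 77.8%, and 266 members were higher and 80 lower in astrocytes. That scaling ended 19 calls toward oligodendrocytes and no call toward astrocytes. Against each scaling's own median of all genes the metabolic median was 0.93 higher in both. This follows from the construction, since a change of scaling moves all genes about alike.

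**Figure D2:**
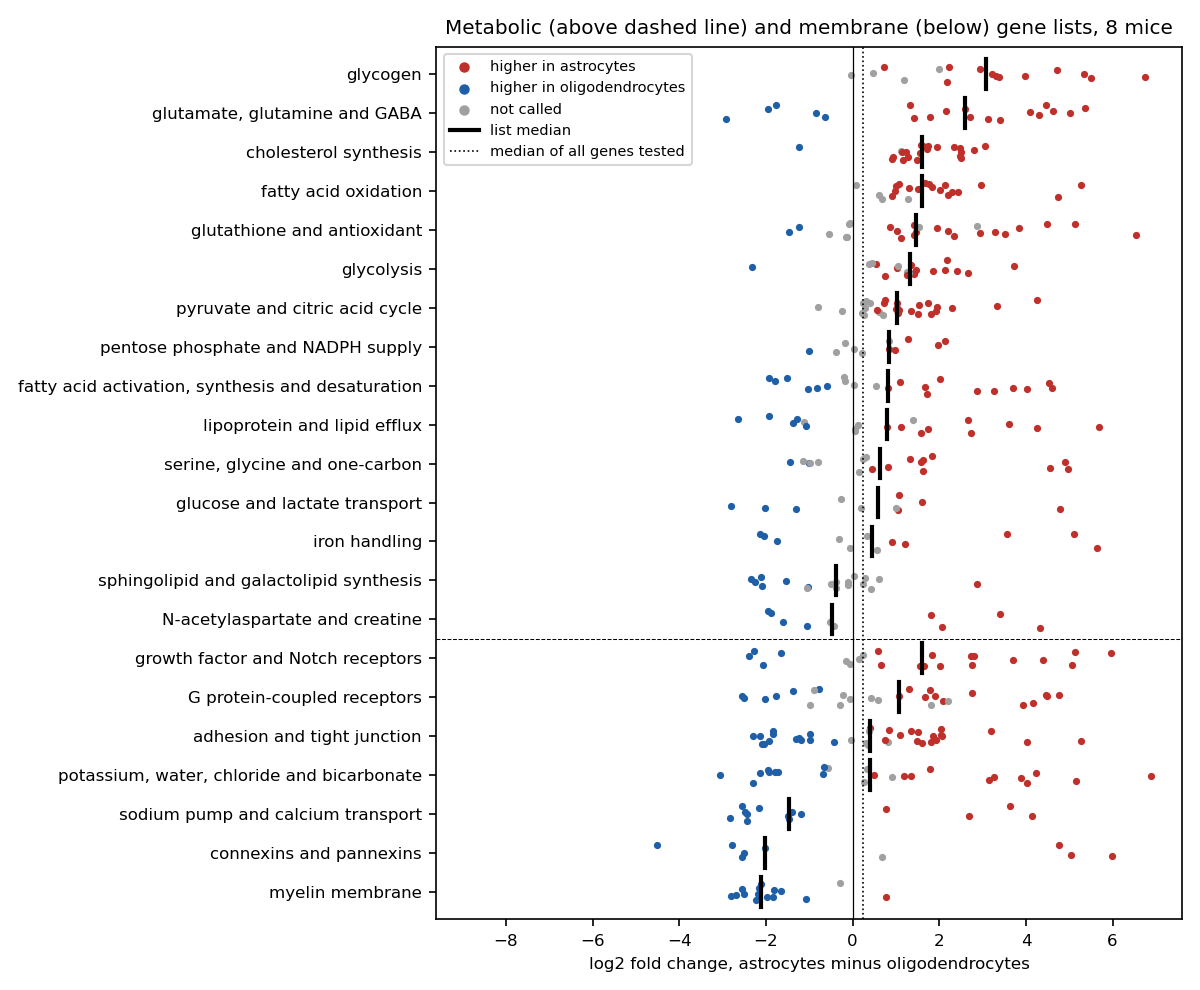
Difference between the cell types (log2 astrocyte/oligodendrocyte) of every tested gene in the 22 lists, 1 point per gene, coloured by its call, with a bar at each list's median and a dotted line at the median of all genes tested (0.23). Glycogen has the highest median (3.07) and the myelin membrane the lowest in this fit (-2.12), close to connexins and pannexins (-2.03), which were lowest under some alternatives (-2.23 against -2.07 with no filter).

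Glycolysis and glycogen were on the astrocyte side. Of 20 glycolytic genes, 14 were higher and 1 lower in astrocytes (median difference 1.32). Aldoc, the brain aldolase used as an astrocyte marker, lies at chr11:78213619-78218889 (GRCm39) and had the widest gap of the list. Here and below, 3 levels give the lowest, the median and the highest of the 8 libraries of a type, astrocytes first where no type is named. Aldoc measured 2009, 2407 and 2627 CPM in astrocytes and 102, 189 and 314 CPM in oligodendrocytes, a log2 difference of 3.73 ± 0.17 SE (adjusted p = 6.53e-10). Muscle-type phosphofructokinase Pfkm, which commits glucose carbon to glycolysis, measured 122, 152 and 187 CPM against 14.1, 30.3 and 95.5 CPM (2.17 ± 0.27 SE, adjusted p = 1.68e-05). Ldhb, the lactate dehydrogenase subunit that favours pyruvate, measured 108, 133 and 159 CPM against 15.3, 27.1 and 40 CPM (2.40 ± 0.17 SE, adjusted p = 4.59e-08). None of the 3 overlapped between the types. Eno2, the enolase of neurons, was the single gene in the other direction, at 6.66, 8.18 and 22.5 CPM in astrocytes and 23.2, 37.7 and 171 CPM in oligodendrocytes (-2.33 ± 0.40 SE, adjusted p = 2.89e-04), beside the neuron marker sums given above. Pkm and Hk1, which catalyse the last and the first step, were not called (0.44 ± 0.18 and 0.38 ± 0.22 SE), and both overlapped.

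Glycogen genes had the highest median of the 22 lists (3.07), with 12 of 16 higher in astrocytes, 11 of them at least 4-fold, and none lower. Ppp1r3c at chr19:36708523-36714070 targets protein phosphatase to glycogen. Its levels were 334, 361 and 464 CPM in astrocytes and 3.58, 15.9 and 25.5 CPM in oligodendrocytes (4.71 ± 0.28 SE, adjusted p = 7.93e-09). A second targeting subunit, Ppp1r3g, stood at 27.6, 35.2 and 44.6 CPM against 0, 0.106 and 2.18 CPM (6.75 ± 0.59 SE, adjusted p = 4.46e-07). The glycogen phosphorylases, which release glucose units, were Pygb at 277, 388 and 444 CPM against 21.8, 35.7 and 48.7 CPM (3.39 ± 0.17 SE) and Pygm at 33.8, 43.3 and 48.2 CPM against 0.362, 2.66 and 5.8 CPM (3.98 ± 0.37 SE). Phkg1, the catalytic subunit of phosphorylase kinase, stood at 45, 62.6 and 80.7 CPM against 0.544, 1.19 and 2.68 CPM (5.50 ± 0.33 SE, adjusted p = 1.02e-08). In all 5 genes every astrocyte library was above every oligodendrocyte library. Gys1, glycogen synthase, was higher in astrocytes (3.21 ± 0.73 SE, 7 of 8 mice), whereas Gbe1, the branching enzyme, was not called (1.20 ± 0.47 SE, adjusted p = 0.061).

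Transporters of glucose and lactate were divided, with 4 of 10 higher and 3 lower in astrocytes. Slc2a1, the glucose transporter of glia and endothelium, was higher in astrocytes at 119.8, 132 and 156 against 53.9, 63.5 and 83.9 CPM (1.07 ± 0.13 SE, adjusted p = 9.46e-06). Slc16a7, a high-affinity monocarboxylate transporter, went the other way with 1.94, 4.99 and 11.3 CPM in astrocytes and 24.4, 29.8 and 48 CPM in oligodendrocytes (-2.80 ± 0.31 SE, adjusted p = 4.62e-06). Slc2a3, the glucose transporter known from neurons, was also lower in astrocytes (-2.02 ± 0.39 SE), and in the 3 genes the types did not overlap. Slc16a1, the lactate transporter of oligodendrocytes, was not called at 19.6, 22.5 and 35.8 CPM against 20.9, 29.3 and 41.4 CPM (-0.28 ± 0.21 SE, adjusted p = 0.335). In the pentose phosphate and NADPH list, 5 of 11 were higher and 1 lower in astrocytes. G6pdx, which opens the pathway, had 43.2, 51.7 and 84.2 CPM against 18.4, 29.8 and 33 CPM (0.98 ± 0.18 SE), and Taldo1, of its non-oxidative branch, 14.3, 22.5 and 36.5 CPM against 28.4, 51.4 and 64.7 CPM (adjusted p = 2.52e-04). The Taldo1 call was lost when libraries were scaled by total counts.

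Nuclear genes for mitochondrial fuel use were on the astrocyte side. In the list of pyruvate and citric acid cycle genes 18 of 28 were higher and none lower (median 1.02). Pdk4, a kinase that shuts off pyruvate dehydrogenase, had the widest gap at 57.5, 67.3 and 74 CPM in astrocytes and 0.445, 4.53 and 8.48 CPM in oligodendrocytes (4.25 ± 0.45 SE, adjusted p = 3.01e-06). Cs, citrate synthase, had 204, 239 and 256 CPM against 40.1, 69.6 and 118 CPM (1.75 ± 0.16 SE, adjusted p = 7.33e-07), and Idh2, the mitochondrial NADP isocitrate dehydrogenase, 34.9, 42.8 and 51.5 CPM against 1.52, 5.01 and 8.24 CPM (3.34 ± 0.30 SE, adjusted p = 6.49e-07). The 8 values of each type lay apart in these 3 genes. Ogdh and Sdha were not called (0.27 and 0.24) and overlapped. The share of counts from the mitochondrial genome itself lay in the other direction, as given above. That share includes ribosomal RNA and is not a measure of mitochondrial protein-coding genes alone. The ribosomal RNA gene mt-Rnr2, chosen after its values were seen, measured 127557, 155438 and 237291 CPM against 250006, 369138 and 461396 CPM.

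Fatty acid oxidation genes were higher in astrocytes for 18 of 22 members and lower for none (median 1.61). Cpt1a at chr19:3371853-3437996, which passes fatty acids into mitochondria, stood at 56.7, 88.5 and 121 CPM in astrocytes and 3.39, 10.9 and 28 CPM in oligodendrocytes (2.95 ± 0.35 SE, adjusted p = 9.44e-06). Acaa2, a thiolase that splits off acetyl-CoA, stood at 36.8, 43.3 and 48.7 CPM against 0.242, 1.64 and 8.17 CPM (4.74 ± 0.56 SE, adjusted p = 9.32e-06). Ppara, the nuclear receptor that drives this pathway in liver, stood at 3.78, 8.75 and 13.5 CPM against 0, 0.115 and 1.16 CPM (5.27 ± 0.83 SE, adjusted p = 1.36e-04). None of the 3 overlapped, but Ppara was near the counting floor in oligodendrocytes. Cpt1c, a neuronal relative, was not called at 9.74, 15.9 and 23.8 CPM against 7.15, 16.4 and 21.1 CPM (0.07 ± 0.28 SE).

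Fatty acid synthesis was divided by enzyme. Of 21 genes for activating, making and desaturating fatty acids, 11 were higher and 6 lower in astrocytes (median 0.81). The activating enzyme Acsbg1, which acts on very long chains, had 212, 252 and 289 CPM in astrocytes and 4.89, 9.33 and 30.2 CPM in oligodendrocytes (4.53 ± 0.28 SE, adjusted p = 1.40e-08). Elovl2, the elongase of long polyunsaturated chains such as those leading to docosahexaenoate, had 77.7, 86.7 and 100.2 CPM against 0.358, 3.78 and 17.2 CPM (4.59 ± 0.49 SE, adjusted p = 3.12e-06). Fads2, a desaturase of the same route, had 204, 231 and 295 CPM against 12.7, 22.7 and 54.9 CPM (3.27 ± 0.19 SE, adjusted p = 8.14e-09). Every astrocyte library exceeded every oligodendrocyte library for these 3 and for Acsl3 (2.86 ± 0.13 SE) and Acsl6 (3.69 ± 0.21 SE). Fasn, fatty acid synthase, was higher by less (0.81 ± 0.13 SE).

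Scd1 at chr19:44382894-44399154, which makes monounsaturated fatty acids, was higher in oligodendrocytes, at 206, 248 and 321 CPM in astrocytes and 398, 526 and 605 CPM in oligodendrocytes (-1.02 ± 0.12 SE, adjusted p = 1.09e-05). Elovl7, an elongase of saturated chains, had 6.89, 15.7 and 25.4 CPM against 33, 58 and 91.6 CPM (-1.92 ± 0.23 SE, adjusted p = 9.64e-06). Acsl1 had 11.5, 18.7 and 26.5 CPM against 33.1, 52.8 and 73.5 CPM (-1.51 ± 0.20 SE). The types did not overlap for any of them. Elovl1 and Elovl6 were also called toward oligodendrocytes (-0.81 and -0.59) but overlapped and lost the call on leaving out some mice. Scd2, the desaturase next to Scd1 in the genome, was not called at 1197, 1456 and 1878 CPM against 1043, 1778 and 2332 CPM (-0.18 ± 0.10 SE, but 0.39 under total-count scaling).

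Cholesterol synthesis was the list with the highest share of genes higher in astrocytes, 20 of 22 (median 1.61). Msmo1 at chr8:65170603-65186830, a sterol demethylation enzyme, measured 332, 373 and 512 CPM in astrocytes and 41.7, 72.8 and 110.5 CPM in oligodendrocytes (2.49 ± 0.18 SE, adjusted p = 7.32e-08). Fdft1, squalene synthase, measured 116, 154 and 176 CPM against 8.91, 27.2 and 50.9 CPM (2.47 ± 0.19 SE, adjusted p = 1.50e-07). Both lay apart in the 8 and 8 libraries. The regulators Srebf2 and Insig1 differed by 0.92 and 1.63. Ebp, a sterol isomerase, was the exception at 2.91, 5.83 and 6.97 CPM against 6.68, 12.2 and 19.9 CPM (-1.24 ± 0.33 SE, adjusted p = 0.008), a call that was lost under total-count scaling. Fdps was not called (1.11 ± 0.72 SE). Idi1 had the widest difference (3.06 ± 0.36 SE), but copies of 80.0% of its exonic windows exist elsewhere in the genome, so its counts may miss reads.

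Because these genes lay in one direction, their promoters were read for the CCAAT box, bound by NF-Y, a usual partner of the sterol regulator SREBP. In windows from 250 bases before to 50 bases after the start (RefSeq, GRCm38.p6), 17 of the 22 genes had an entry, and CCAAT on either strand (CCAAT or ATTGG) was present in 16 of 17 (94.1%). It was present in 41.1% of all 27025 promoters, in 42.9% of 10232 promoters of protein-coding genes tested, in 66.7% of 18 genes of fatty acid activation, synthesis and desaturation, in 57.1% of 14 glycogen genes, in 38.9% of 18 fatty acid oxidation genes and in 25% of 12 myelin membrane genes. Ebp, lower in astrocytes, had the box as well. The letters TCACNCCAC, on either strand, were found in 1 of 17 (Hmgcs1) and in 1.44% of all promoters. A match of letters is a description and not a binding site. Shown for 6 genes, Ebp among them, are the matches nearest to the start in capitals with 20 bases on each side, 5′ to 3′ along the gene.
Idi1, chr13:8885572-8885616 (+): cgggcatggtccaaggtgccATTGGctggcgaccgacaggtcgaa
Mvd, chr8:122443425-122443469 (-): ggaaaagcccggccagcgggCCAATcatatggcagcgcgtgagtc
Msmo1, chr8:64733609-64733653 (-): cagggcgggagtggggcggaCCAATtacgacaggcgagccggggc
Cyp51, chr5:4104702-4104746 (-): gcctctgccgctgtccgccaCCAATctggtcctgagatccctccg
Lss, chr10:76531523-76531567 (+): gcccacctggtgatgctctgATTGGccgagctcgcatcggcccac
Ebp, chrX:8193543-8193587 (-): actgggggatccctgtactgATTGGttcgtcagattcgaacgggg

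Of 18 sphingolipid and galactolipid genes 1 was higher and 6 were lower in astrocytes (median -0.38, or -0.62 relative to the median of all genes). Under total-count scaling 5 were higher and 6 lower, and the median was 0.18. Relative to all genes it was -0.62 there too, by construction, since a change of scaling moves all genes about alike. Galactolipids are the hallmark lipids of myelin. Fa2h at chr8:112071767-112120465, which hydroxylates their fatty acids, measured 26.6, 85.2 and 146 CPM in astrocytes and 258, 390.0 and 459 CPM in oligodendrocytes (-2.24 ± 0.22 SE, adjusted p = 1.30e-06). Ugt8a, which adds galactose to ceramide, measured 39, 56.9 and 128 CPM against 196, 297 and 404 CPM (-2.12 ± 0.17 SE, adjusted p = 1.85e-07). Gltp, a glycolipid transfer protein, measured 23.4, 28 and 52.3 CPM against 63, 90 and 143 CPM (-1.53 ± 0.14 SE, adjusted p = 9.27e-07). Neither these 3 nor Cers6, a ceramide synthase (-2.35 ± 0.39 SE), overlapped between the types. Gal3st1, the sulfatide sulfotransferase, was lower in astrocytes too (-2.08 ± 0.42 SE), with overlap. The gene higher in astrocytes was Cers1 (2.86 ± 0.57 SE), and 77% of its exonic bases are shared with another gene model, so its reads cannot be assigned to it alone. Sptlc1 and Sptlc2, the subunits that start the pathway, were not called (0.60 and -0.50).

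Lipoprotein and efflux genes were divided, 9 of 19 higher and 5 lower in astrocytes. Apoe at chr7:19430034-19434947, the main lipoprotein of the brain, measured 1709, 1936 and 2358 CPM in astrocytes and 236, 269.6 and 401 CPM in oligodendrocytes (2.74 ± 0.13 SE, adjusted p = 1.31e-09). Clu, also a lipoprotein, measured 1504, 1750 and 1970 CPM against 52.7, 89.1 and 153 CPM (4.26 ± 0.18 SE, adjusted p = 4.88e-10). Lcat, which esterifies cholesterol on such particles, measured 97.5, 151 and 198 CPM against 0.742, 2.9 and 7.74 CPM (5.68 ± 0.34 SE, adjusted p = 9.11e-09). In astrocytes these 3 were above every oligodendrocyte library. Apod, a lipocalin, was higher in oligodendrocytes at 57.4, 160.3 and 271 CPM against 432, 562 and 715 CPM (-1.93 ± 0.25 SE, adjusted p = 1.93e-05). The sterol exporters were split, since Abca1 differed by 1.74 ± 0.27 SE and Abcg1 by -2.65 ± 0.22 SE, while Abca2, a transporter of oligodendrocyte lysosomes, differed by -1.29 ± 0.13 SE. Of these, only Abca1 overlapped between the types.

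Every tested gene of glutamate, glutamine and GABA handling was called, 14 of 19 higher and 5 lower in astrocytes (median 2.59). Slc1a2 at chr2:102488574-102621129, the main glutamate transporter of the forebrain, measured 9038, 9755 and 12186 CPM in astrocytes and 709, 1148 and 2161 CPM in oligodendrocytes (3.12 ± 0.17 SE, adjusted p = 3.89e-09). Slc1a3, its partner in glia, measured 1352, 1617 and 1833 CPM against 54.5, 69.3 and 194 CPM (4.31 ± 0.20 SE, adjusted p = 9.23e-10). Glul, glutamine synthetase, measured 2684, 2941 and 3633 CPM against 956, 1103 and 1274 CPM (1.42 ± 0.10 SE, adjusted p = 7.43e-08). The types did not overlap, but the gap of Glul was the narrowest of the 3, with no oligodendrocyte library below 956 CPM. Per kilobase of exon, Glul stood at 754 CPM in astrocytes and 282 CPM in oligodendrocytes, and Slc1a2 at 714 and 86.7 CPM. Slc6a11, a GABA transporter, measured 654, 717 and 856 CPM against 10.8, 48.5 and 126 CPM (4.09 ± 0.31 SE), and Slc7a11, which exchanges cystine for glutamate, 221, 278 and 324 CPM against 2.06, 13.3 and 31.1 CPM (4.62 ± 0.31 SE).

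On the oligodendrocyte side of this list stood Slc38a2, a glutamine carrier, at 45.1, 69.9 and 146 CPM in astrocytes and 171, 232 and 356 CPM in oligodendrocytes (-1.76 ± 0.17 SE, adjusted p = 1.49e-06), without overlap. Gad1, which makes GABA in interneurons, was lower in astrocytes (-2.91 ± 0.57 SE) and overlapped. In the oligodendrocyte libraries Gad1 was 2.51 to 7.69 CPM in pairs 1 and 3 and 13.5 to 39.0 CPM in pairs 5 and 6, the same order of pairs as the sums of neuron, astrocyte, endothelial and mural markers. The part of RNA from other cells in this call was not tested. Got1 and Got2 were called toward oligodendrocytes (-0.63 and -0.85), overlapped, and lost the call on leaving out some mice.

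**Figure D3:**
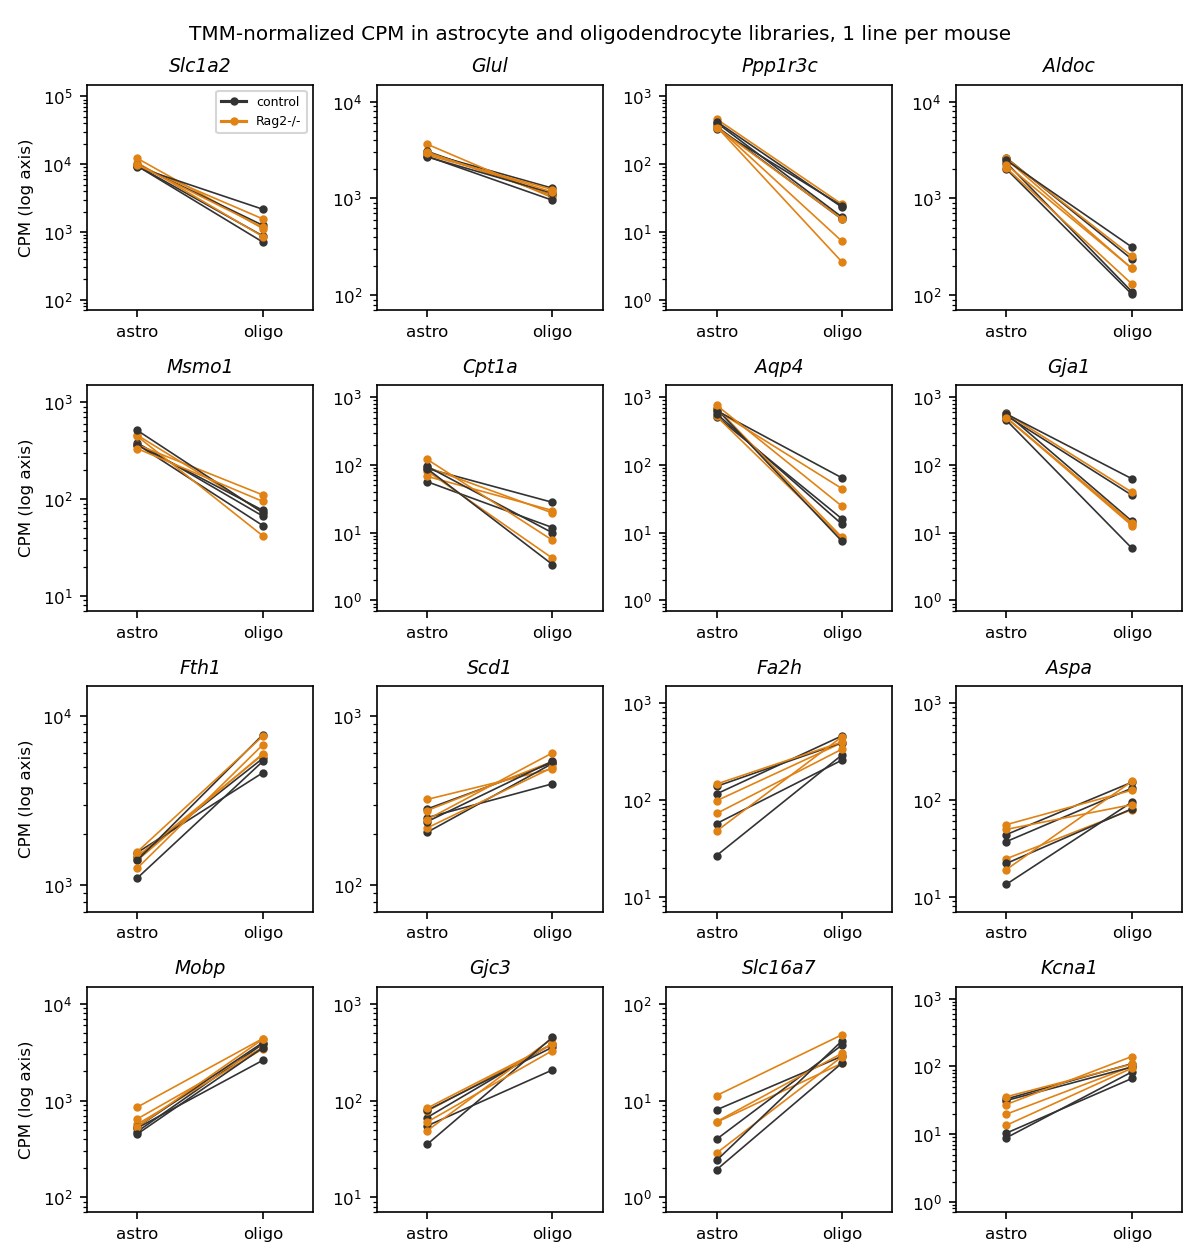
Level of 16 members in each of the 8 mice (CPM after TMM scaling, log axis), with a line joining the astrocyte and the oligodendrocyte library of a mouse, black for control and orange for Rag2-/-. The lines fall from astrocytes to oligodendrocytes for genes such as Slc1a2, Ppp1r3c and Msmo1 and rise for Scd1, Fth1 and Mobp, in 8 of 8 mice of both genotypes.

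Serine, glycine and one-carbon genes were higher in astrocytes for 10 of 18 members and lower for 2. Aldh1l1, the folate enzyme used as a pan-astrocyte marker, measured 89.5, 95.2 and 116 CPM in astrocytes and 0.272, 3.12 and 10.5 CPM in oligodendrocytes (4.96 ± 0.38 SE, adjusted p = 1.14e-07). Gldc, of the glycine cleavage system, measured 74.3, 87.4 and 108 CPM against 1.97, 3.31 and 11.3 CPM (4.55 ± 0.29 SE, adjusted p = 2.18e-08). Cbs, which turns homocysteine to cystathionine, measured 108, 132 and 161 CPM against 1.3, 3.8 and 42.5 CPM (4.89 ± 0.44 SE, adjusted p = 5.73e-07). None overlapped. Serine synthesis was less divided, since Phgdh and Psph were higher in astrocytes (1.57 and 1.63) and Psat1 was not called at 238, 281 and 321 CPM against 114, 239.6 and 279 CPM. Copies of 70.1% of the Phgdh windows exist elsewhere. The glycine transporter Slc6a9 was lower in astrocytes (-1.01 ± 0.31 SE), and Mthfd2 (-1.45 ± 0.51 SE), both calls lost on leaving out some mice.

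Glutathione and antioxidant genes were higher in astrocytes for 16 of 25 members and lower for 2 (median 1.47). Prdx6 at chr1:161051417-161079098, a peroxiredoxin, measured 363, 408 and 515 CPM in astrocytes and 26.3, 37.1 and 55.5 CPM in oligodendrocytes (3.51 ± 0.14 SE, adjusted p = 4.88e-10). Gstm1, a glutathione transferase, measured 649, 851 and 958 CPM against 55.5, 83.3 and 152 CPM (3.28 ± 0.17 SE, adjusted p = 3.07e-09). Mt1, a metallothionein, measured 92.1, 122 and 164 CPM against 16.6, 26.4 and 36.6 CPM (2.21 ± 0.22 SE, adjusted p = 1.34e-06). In each of them the astrocyte libraries were all above the oligodendrocyte libraries. Mt2 had at most 3 counts in any oligodendrocyte library and was at least 7.94-fold higher in astrocytes (against a floor of 3 counts per library), and 82% of its exonic bases are shared with another gene model. Of the genes that make glutathione, Gclc and Gss were not called (-0.06 and -0.54), and Gclm, the modifier subunit paired with Gclc, was higher in astrocytes (0.86 ± 0.22 SE, adjusted p = 0.0062, 7 of 8 mice), with overlap. The 2 genes higher in oligodendrocytes were Gstp1 and Mgst3, both of transferase families. Gstp1 stood at 7.95, 13.2 and 17.5 CPM against 22.4, 30.7 and 45.9 CPM (-1.24 ± 0.19 SE, adjusted p = 1.20e-04), with no overlap and copies of 52.2% of its windows elsewhere. Mgst3 stood at 1.89, 2.42 and 4.05 CPM against 1.97, 7.05 and 16.4 CPM (-1.48 ± 0.45 SE, adjusted p = 0.0175), with overlap, and its call was lost under total-count scaling and without the control mouse of pair 6.

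N-acetylaspartate, acetate and creatine genes were divided evenly, 4 of 10 higher and 4 lower in astrocytes. Aspa at chr11:73187042-73220422, which splits N-acetylaspartate into acetate and aspartate, measured 13.4, 30.8 and 55.4 CPM in astrocytes and 79.3, 110.2 and 155 CPM in oligodendrocytes (-1.88 ± 0.23 SE, adjusted p = 1.17e-05). Slc13a3, a dicarboxylate transporter that takes up N-acetylaspartate, measured 32.9, 40.6 and 48.9 CPM against 0.148, 2.32 and 13.2 CPM (4.33 ± 0.59 SE, adjusted p = 3.24e-05). The acetate-activating enzymes Acss1 and Acss2 were higher in astrocytes (3.39 ± 0.34 and 2.06 ± 0.23 SE). For all 4 the types lay apart. Creatine synthesis genes were lower in astrocytes, and the 2 creatine kinases of the list differed in direction. Gatm, the first enzyme of creatine synthesis, measured 54.8, 94.2 and 161 CPM against 249, 408 and 468 CPM (-1.94 ± 0.17 SE, adjusted p = 3.62e-07), and Ckb, brain creatine kinase, 954, 1111 and 1231 CPM against 261, 314 and 353 CPM (1.82 ± 0.10 SE, adjusted p = 6.16e-09), both without overlap. Gamt, the enzyme after Gatm, and Ckmt1, a mitochondrial creatine kinase, were lower in astrocytes (-1.04 ± 0.24 and -1.61 ± 0.50 SE, adjusted p = 0.0033 and 0.019), with overlap. Both lost the call under total-count scaling (-0.47 and -1.03), and Ckmt1 also without the control mouse of pair 5 (-1.33) or of pair 6 (-1.39).

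Ferritin heavy chain and transferrin were higher in oligodendrocytes, within a list of 12 iron genes of which 5 were higher and 3 lower in astrocytes. Fth1 at chr19:9957911-9962462, the heavy chain of ferritin, measured 1105, 1436 and 1579 CPM in astrocytes and 4619, 5942 and 7739 CPM in oligodendrocytes (-2.13 ± 0.11 SE, adjusted p = 3.34e-09). Trf, transferrin, measured 60.8, 214 and 379 CPM against 438, 707 and 983 CPM (-1.74 ± 0.21 SE, adjusted p = 1.01e-05). Neither overlapped. The light chain gene Ftl1 was the reverse at 20.1, 35.7 and 48.2 CPM against 0.741, 2.67 and 12.5 CPM (3.56 ± 0.52 SE, adjusted p = 6.34e-05), but copies of 74.8% of its windows exist elsewhere, so its level is uncertain. Tfrc, the transferrin receptor, was higher in astrocytes at 42.4, 51.2 and 63.5 CPM against 16.6, 27.3 and 43.1 CPM (0.90 ± 0.20 SE). Heph and Steap3, an oxidase and a reductase of iron, were at no more than 0.864 and 1.17 CPM in any oligodendrocyte library and at medians of 7.87 and 13.8 CPM in astrocytes. Slc40a1, the iron exporter, was not called (0.33 ± 0.90 SE).

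Myelin membrane genes were lower in astrocytes for 13 of 15 members (median -2.12). Mbp, myelin basic protein, measured 1635, 2001 and 3099 CPM in astrocytes and 10691, 14898 and 18495 CPM in oligodendrocytes (-2.81 ± 0.12 SE, adjusted p = 5.10e-10). Mobp at chr9:119973770-120011273, of the compact sheath, measured 452, 534 and 857 CPM against 2608, 3696 and 4376 CPM (-2.70 ± 0.12 SE, adjusted p = 6.60e-10). These libraries lay far apart, but the astrocyte libraries still held over 1600 CPM of Mbp. Cnp, Mag, Mog and Mal, which are further proteins of the sheath, differed by -1.64, -2.15, -1.97 and -1.84. Across the 13 genes the differences ran from -2.81 to -1.07, beside -2.81 to -1.64 for the oligodendrocyte marker list, which holds some of the same genes. Omg, named after oligodendrocytes and myelin, was higher in astrocytes at 187, 309.9 and 373 CPM against 120.3, 158 and 223 CPM (0.77 ± 0.14 SE, adjusted p = 4.34e-04), with overlap. Gpm6b, of the proteolipid family, was not called at 601, 697 and 831 CPM against 678, 832 and 1177 CPM (-0.29 ± 0.13 SE).

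Connexins separated the types by member, with 3 of 9 gap junction and pannexin genes higher and 5 lower in astrocytes. Gja1 at chr10:56253241-56278609, the main astrocyte connexin, measured 458, 518 and 576 CPM in astrocytes and 5.91, 14.4 and 62.6 CPM in oligodendrocytes (4.76 ± 0.31 SE, adjusted p = 2.47e-08). Gjb6, its partner, measured 214, 259.6 and 342 CPM against 1.9, 7.29 and 30.5 CPM (5.04 ± 0.38 SE, adjusted p = 9.61e-08). Gjc3, an oligodendrocyte connexin, measured 35.2, 63.3 and 83.4 CPM against 207, 384 and 449.9 CPM (-2.55 ± 0.19 SE, adjusted p = 8.09e-08). For these 3 the types did not overlap. Gjb1, a connexin of oligodendrocytes, was lower in astrocytes (-2.51 ± 0.31 SE). The channel genes Panx1 and Panx2 were higher in oligodendrocytes (-4.51 ± 0.79 and -2.78 ± 0.38 SE), Panx1 at no more than 1.67 CPM in any astrocyte library.

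Water and potassium channels were split as well, 11 of 24 genes for potassium, water, chloride and bicarbonate being higher and 9 lower in astrocytes. Aqp4, the water channel of astrocyte endfeet, measured 517, 636 and 761 CPM in astrocytes and 7.42, 14.6 and 64.2 CPM in oligodendrocytes (5.16 ± 0.35 SE, adjusted p = 3.42e-08). Slc4a4, a bicarbonate cotransporter, measured 545, 711 and 798 CPM against 25.6, 39.1 and 115 CPM (3.89 ± 0.23 SE, adjusted p = 7.93e-09). Kcnk1, a leak potassium channel, measured 113, 158 and 175 CPM against 5.16, 7.93 and 26.4 CPM (4.02 ± 0.22 SE, adjusted p = 4.60e-09). No library of one type reached the range of the other. Kcnj10, the inward rectifier of glia, was also higher in astrocytes, but by far less, at 298, 334 and 370.4 CPM against 198, 242 and 272 CPM (0.48 ± 0.11 SE, adjusted p = 0.0034). Its partner Kcnj16 differed by 3.27 ± 0.39 SE. Hepacam, whose protein was the target of the astrocyte plate, measured 319.6, 415 and 445 CPM against 121, 165 and 196 CPM (1.34 ± 0.14 SE).

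Of the 5 voltage-gated potassium channels in this list, Kcna1, Kcna6 and Kcnma1 were higher in oligodendrocytes and Kcna2 and Kcnd2 were not called, beside the neuron marker sums, which were higher in oligodendrocyte libraries too. Kcna1, a delayed rectifier, measured 8.85, 23.6 and 35.7 CPM in astrocytes and 66.4, 99 and 140.0 CPM in oligodendrocytes (-2.29 ± 0.21 SE, adjusted p = 6.06e-07). Kcna6 measured 4.9, 13.8 and 17.9 CPM against 33, 42.8 and 54.4 CPM (-1.95 ± 0.24 SE), and Kcnma1, which calcium also opens, 28.5, 34.1 and 43.9 CPM against 68.2, 120.4 and 256 CPM (-1.79 ± 0.22 SE). Kcna2 and Kcnd2 differed by 0.33 ± 0.15 and -0.57 ± 0.30 SE. Slc12a2, a chloride importer, measured 44.2, 70 and 119 CPM against 148, 282 and 366 CPM (-1.92 ± 0.18 SE, adjusted p = 9.21e-07). Kcna1, Kcna6, Kcnma1 and Slc12a2 did not overlap between the types. Car2, carbonic anhydrase, was higher in oligodendrocytes by less, at 159, 206 and 253 CPM against 224, 326 and 389.9 CPM (-0.65 ± 0.12 SE, adjusted p = 4.88e-04), and its call was lost under total-count scaling.

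Beta subunits of the sodium pump differed in direction, 2 being higher and 1 lower in astrocytes. Atp1b2 at chr11:69487651-69496851, an adhesive glial subunit, measured 1357, 1812 and 2019 CPM in astrocytes and 92.2, 129 and 304 CPM in oligodendrocytes (3.62 ± 0.18 SE, adjusted p = 1.25e-09). Atp1b3 measured 52.6, 77.9 and 115 CPM against 144, 218 and 262 CPM (-1.46 ± 0.16 SE, adjusted p = 4.48e-06). Both were without overlap. Atp1b1, a subunit also of neurons, was higher in astrocytes by less, at 107, 125 and 167 CPM against 36.3, 74.5 and 169.5 CPM (0.76 ± 0.21 SE, adjusted p = 0.0095, 7 of 8 mice), with overlap, and its call was lost with pairs 5 and 6 alone.

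Genes of calcium extrusion were on the oligodendrocyte side. Of 14 pump and calcium transport genes 4 were higher and 10 lower in astrocytes (median -1.48), and the 10 included Slc8a1, Slc8a2 and Slc8a3, which exchange sodium for calcium, and Atp2b1, Atp2b2 and Atp2b4, the plasma membrane calcium pumps. Slc8a1 measured 14.3, 22.3 and 44.9 CPM in astrocytes and 117, 162 and 211 CPM in oligodendrocytes (-2.82 ± 0.22 SE, adjusted p = 1.35e-07). Slc24a2, an exchanger that also carries potassium, measured 33.4, 65.8 and 118 CPM against 282, 374 and 451 CPM (-2.47 ± 0.25 SE, adjusted p = 1.78e-06). Neither overlapped. In oligodendrocytes Slc8a1 was at 117 to 162 CPM in pairs 1 and 3 and 162 to 211 CPM in pairs 5 and 6, an order of pairs shared with the sums of neuron, astrocyte, endothelial and mural markers. The part of RNA from other cells in it was not tested.

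Among G protein-coupled receptors 12 of 27 were higher and 6 lower in astrocytes. S1pr1, a sphingosine phosphate receptor, measured 542, 649.5 and 888 CPM in astrocytes and 15.7, 22.3 and 70.7 CPM in oligodendrocytes (4.75 ± 0.20 SE, adjusted p = 5.10e-10). S1pr5, a receptor for the same ligand, measured 6.38, 12 and 35.2 CPM against 42.1, 57.5 and 83.4 CPM (-2.03 ± 0.27 SE, adjusted p = 2.66e-05). Lpar1, which binds lysophosphatidic acid, measured 16.4, 29.8 and 35.9 CPM against 98.8, 152 and 239 CPM (-2.55 ± 0.19 SE, adjusted p = 1.09e-07). Each of them was without overlap. Glutamate receptors were divided, with Grm3 higher in astrocytes (1.67 ± 0.13 SE) and Grm5 and Grm7 higher in oligodendrocytes (-2.51 ± 0.26 and -1.78 ± 0.33 SE). Gabbr1, of the GABA-B receptor, was higher in astrocytes (1.31 ± 0.13 SE) and its partner Gabbr2 was not called (0.43 ± 0.17 SE). Ntsr2, a neurotensin receptor, measured 306, 362 and 437 CPM against 6.98, 13 and 41.3 CPM (4.50 ± 0.29 SE).

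Growth factor and Notch receptors lay toward astrocytes, 14 of 22 higher and 4 lower (median 1.59). Fgfr3 measured 243, 342 and 392 CPM in astrocytes and 4.45, 8.38 and 26.2 CPM in oligodendrocytes (5.14 ± 0.29 SE, adjusted p = 5.19e-09). Fgfr2, from the same family of fibroblast growth factor receptors, was not called at 162, 213 and 308 CPM against 195, 258 and 296 CPM (-0.16 ± 0.13 SE, but 0.41 under total-count scaling). The receptors of the epidermal growth factor family went apart, with Egfr at 111, 164 and 194 CPM against 4.8, 7.31 and 13.4 CPM (4.39 ± 0.19 SE, adjusted p = 5.10e-10) and Erbb4 at 6.32, 14.3 and 22.5 CPM against 56.5, 74.7 and 85.5 CPM (-2.38 ± 0.20 SE, adjusted p = 3.32e-07). Fgfr3, Egfr and Erbb4 did not overlap. The neurotrophin receptors also went apart, with Ntrk2 higher (2.75 ± 0.12 SE) and Ntrk3 lower (-2.06 ± 0.22 SE) in astrocytes. All 4 members lower in astrocytes (Erbb3, Erbb4, Ntrk3 and Tgfbr1) were higher still in OPC than in oligodendrocyte libraries, Erbb4 at 194 and 132 CPM and Ntrk3 at 277 and 136 CPM of nuclear genes, and OPC markers were higher in oligodendrocyte than in astrocyte libraries too. The part of OPC RNA in them, after the earlier plates for OPCs, was not tested. Notch1 and Notch2 were both higher in astrocytes (2.80 and 2.74), and so was Ptch1, the hedgehog receptor (2.01).

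Adhesion and tight junction genes were divided, 17 of 35 higher and 13 lower in astrocytes (median 0.41). Cldn10, a claudin, measured 90.8, 110.2 and 142 CPM in astrocytes and 0.891, 2.82 and 6.64 CPM in oligodendrocytes (5.26 ± 0.30 SE, adjusted p = 6.57e-09). Nrcam, a neuron-glia adhesion protein, measured 220.2, 259.6 and 272 CPM against 58.1, 84.4 and 123 CPM (1.61 ± 0.13 SE, adjusted p = 2.63e-07). Nfasc, which lies beside it at the axon border, measured 72.2, 119.5 and 194 CPM against 346, 543 and 658 CPM (-2.05 ± 0.18 SE, adjusted p = 4.03e-07). These 3 were free of overlap. Cntn2 and Plxnb3, a contactin and a semaphorin receptor, were lower in astrocytes (-2.09 ± 0.21 and -2.30 ± 0.21 SE), and Plxnb1 was higher (2.03 ± 0.16 SE). The engulfment receptors differed in direction, Megf10 by 1.10 ± 0.25 SE and Megf11 by -1.93 ± 0.31 SE. The integrins Itga6 and Itgb4, partners in one receptor, also differed in direction (3.19 ± 0.33 and -1.85 ± 0.29 SE).

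Within a family the change of member was described by the log2 ratio of 2 genes in the same library, per kilobase of exon and so free of the scaling between libraries. For Gjb6 over Gjb1 the mean ratio went from 5.59 in astrocytes to -2.06 in oligodendrocytes. Cldn10 over Cldn11 went from 1.51 to -6.33. Elovl2 over Elovl7 went from 3.00 to -3.73. In the mean, the leading member of these 3 pairs was another one in each type. Atp1b2 over Atp1b3 went from 3.47 to -1.61, Gpr37l1 over Gpr37 from 4.89 to -0.43, and Acsbg1 over Acsl1 from 5.09 to -0.96. Fgfr3 over Fgfr2 went from 0.90 to -4.42. By contrast the mean stayed above 0 in both types for Aldoc over Aldoa (3.81 and 0.62). Slc16a9 stayed below Slc16a1, at 0.362 against 4.71 CPM per kilobase in astrocytes and 0.019 against 5.68 in oligodendrocytes. No exact ratio is given for this pair, since Slc16a9 in oligodendrocytes lay near the 0.01 added to each level. Ldhb over Ldha went from 0.94 to -0.12. Single oligodendrocyte libraries still reached 1.00 for Gjb6 over Gjb1, 0.80 for Acsbg1 over Acsl1 and 0.70 for Ldhb over Ldha. In all 10 pairs the ratio was higher in the astrocyte library in 8 of 8 mice, a direction that the choice of the pairs fixes. For Slc16a9 over Slc16a1 in the Rag2-/- mouse of pair 6 (-8.83 and -9.12), both ratios rest on the 0.01 added and show no order.

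**Figure D4:**
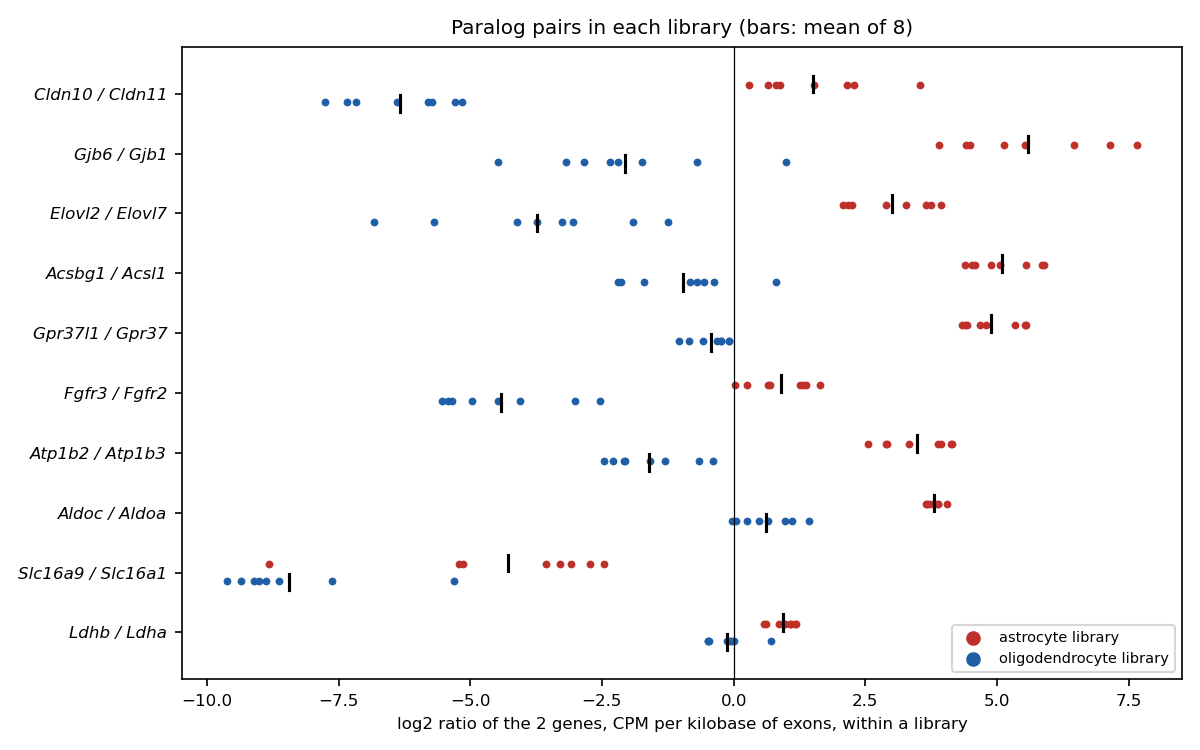
Log2 ratio of the levels per kilobase of 2 related genes in each library, for 10 pairs, with astrocyte and oligodendrocyte libraries in separate colours and a line at a ratio of equal levels. The mean ratio crosses that line between the types for pairs such as Gjb6 over Gjb1 (5.59 to -2.06) and stays on one side for Aldoc over Aldoa (3.81 to 0.62).

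Set among 4 cell types of the same mice (8 astrocyte, 8 oligodendrocyte, 8 microglia and 7 OPC libraries, mean CPM of nuclear genes without TMM scaling, a scale apart from the levels above, with no test), members higher in oligodendrocytes were not all highest there. Of the 99, 67 had their highest level in oligodendrocytes, 23 in OPCs and 9 in microglia. Of the 223 higher in astrocytes, 197 had their highest level in astrocytes, 15 in OPCs and 11 in microglia. The same shares over all called genes are not given, so these counts do not set the members apart from other genes. Mobp stood at 6548 CPM in oligodendrocytes and 108 CPM in OPCs, and Fa2h at 668 and 129 CPM. Fth1 stood at 10938 CPM in oligodendrocytes and 3734 CPM in microglia. These myelin and iron genes were highest in the mature type. The reverse held for Erbb3, at 81.3 CPM in oligodendrocytes and 104 CPM in OPCs, and for Tgfbr1, at 104 CPM in oligodendrocytes and 1365 CPM in microglia. Among members higher in astrocytes, Lrp1, an endocytic receptor, stood at 669 CPM in astrocytes and 1845 CPM in OPCs.

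Levels in the oligodendrocyte libraries also differed between pairs. Of the 99 members higher in oligodendrocytes, 38 (38.4%) had a higher mean in pairs 5 and 6 than in pairs 1 and 3, against 61.7% of all 2860 genes higher in oligodendrocytes and 51% of all genes tested. In 8 (8.08%), with Gad1, Got1, Kcnj9, Mbp, Slc2a13 and Slc8a1 among these, all 4 libraries of pairs 5 and 6 were above all 4 of pairs 1 and 3, which was so for 11% of those 2860 genes and 3.58% of all genes tested. With pairs 1 and 3 alone, chosen after seeing the data, 209 members were higher and 87 lower in astrocytes, and with pairs 5 and 6 alone 194 and 81.

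The 2 genotypes were then set side by side, to ask whether the absence of lymphocytes moved the contrast. In control mice 1708 of 16971 genes (10.1%) were higher in astrocytes and 1789 (10.5%) in oligodendrocytes, and in Rag2-/- mice 1910 (11.3%) and 1726 (10.2%). Of the members, 275 were called in control mice, 274 in Rag2-/- mice and 248 in both, with none in opposite directions. The test of the difference between genotypes called 0 of 16971 genes (0%) in edgeR, with 504 genes (2.97%) at an unadjusted p under 0.05 and 5 calls in the DESeq2 test. With the mouse as the block, the edgeR test did not use the pairing of littermates across genotypes. Among members 13 (3.12%) had an unadjusted p under 0.05 and the smallest adjusted p was 1. The median of the absolute difference between genotypes over members was 0.32 on the log2 scale, and the 95% interval of a member's difference, without adjustment for many genes, reached a median of 0.97 to each side. Differences wider than that also went uncalled, such as Notch1 (2.25 in control and 3.37 in Rag2-/- mice, adjusted p = 1).

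Acacb, the mitochondrial acetyl-CoA carboxylase, had the smallest unadjusted p among members (0.0024), with a fitted log2 difference of 2.27 in control and 6.80 in Rag2-/- mice. Its levels were 2.17, 5.88 and 10.4 CPM in astrocytes and 0, 0.285 and 2.78 CPM in oligodendrocytes over all mice, and no more than 0.123 CPM in the oligodendrocyte libraries of Rag2-/- mice. Adra2a, an adrenergic receptor, gave fitted values of 2.44 and 7.29, with 0 CPM in 3 oligodendrocyte libraries of Rag2-/- mice and 0.109 CPM in the other. With so few counts in that group, the fitted values of 6.80 and 7.29 depend on the prior count and are no measure or bound of the difference. Amt, of the glycine cleavage system, gave 2.81 and 0.52. None of these passed adjustment (adjusted p = 1). Of genes described above, the 2 contrasts were as follows for Slc1a2 (3.06 in control and 3.19 in Rag2-/- mice), Msmo1 (2.59 and 2.39), Fth1 (-2.06 and -2.19) and Mobp (-2.80 and -2.60).

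**Figure D5:**
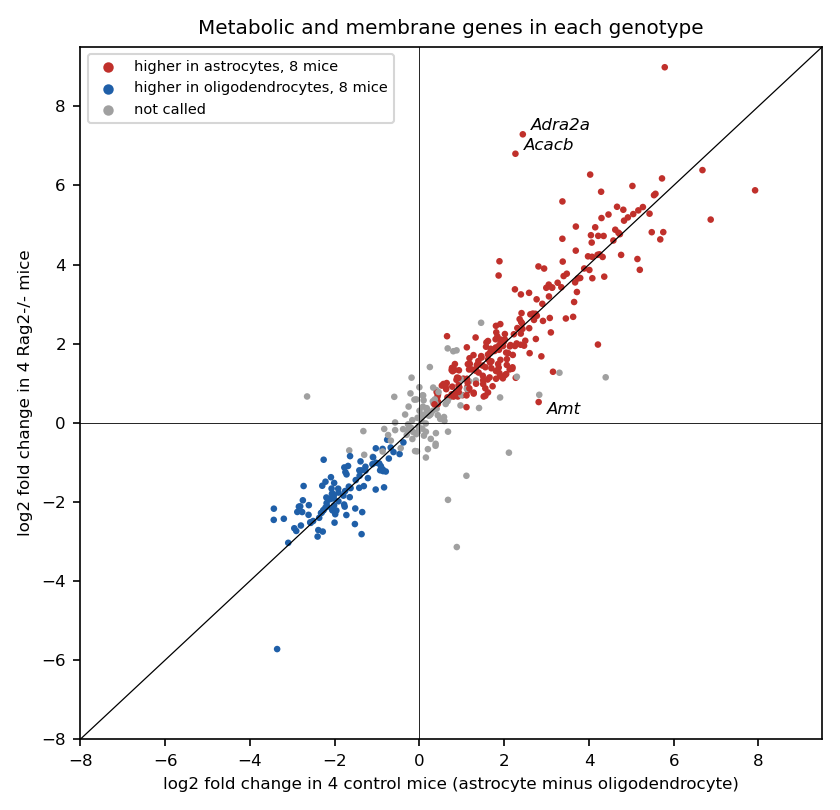
Difference between the cell types (log2 astrocyte/oligodendrocyte) of the 417 tested members in control mice (x axis) against Rag2-/- mice (y axis), 1 point per gene, with a line of equality and 3 genes named. Points lie along the line, and Acacb (2.27 and 6.80), Adra2a (2.44 and 7.29) and Amt (2.81 and 0.52) lie off it with an adjusted p of 1.

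Over all protein-coding genes, the widest differences that were called and had 1 direction in 8 of 8 mice fell on genes outside the lists, mostly low in one type. Toward astrocytes they were Kctd14, Pm20d1, Upp1, Ccno, Echdc3, Rnase1, Acsm5, Optc, Hpx and Ttll8, all at or below 3 counts in every oligodendrocyte library. Of these, Pm20d1, an enzyme of N-acyl amino acids, was at least 45.4-fold and Upp1, uridine phosphorylase, at least 31.7-fold higher in astrocytes (against a floor of 3 counts per library). Toward oligodendrocytes they were Jchain, Ak9, Irf4, Bhlha15, Pou2af1, Vip, Neurl3, Myo5b, Stap1 and Vmn2r84. Jchain, Irf4, Pou2af1 and Bhlha15 are genes of antibody-secreting B lineage cells, found here beside the immunoglobulin counts given above, and Vip is a neuropeptide of interneurons. Irf4, Neurl3 and Stap1 were highest in the microglia libraries. Anti-CD45 plates had come first, and the Rag2-/- mice lack mature B cells. What part such other cells have in these genes was not tested.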

How the data were processed

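Immunopanned cells of mouse cortex were lysed, and their RNA was turned into amplified cDNA and sequenced as paired reads of 50 bases. The authors aligned reads with STAR 2.7.8a to GRCm39 and deposited raw counts per gene made with HTSeq, 1 table per library. Reads with several alignments were set aside by the counter, which lowers the counts of genes with close copies, and the counting mode and strand setting are not given in the sources used here. Reads of overlapping or antisense genes cannot be told apart. Counts that the counter assigned to no gene, for any reason, were 33.5% to 40.5% of all counts in the tables. They entered neither library sizes nor tests. Each table held 55416 gene identifiers, of which 54749 matched the GRCm39 annotation. No pair of libraries of a group was closer than sampling noise (smallest chi-square per gene 13.7).

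Libraries were grouped by their labels. Some list members enter the counts but are not reported by name here. The metabolic and membrane genes, the gene lists and the pairs of related genes were chosen with earlier results of these data known. Genes named are the list members, the marker genes, the paralog pairs, Rag2 and Iftap, and the 10 widest log2 differences in each direction among protein-coding genes called with the same direction in every mouse. A joint fit of the 16 libraries (edgeR 4.0.16 in R 4.3.3, TMM factors 0.68 to 1.38, filterByExpr with a minimum count of 10, quasi-likelihood test) held the mouse as a block, since both types came from the same animal, and cell type within each genotype. P-values were adjusted over all 16971 genes tested (Benjamini-Hochberg, call under 0.05). Libraries of the same mouse deviated together only weakly (mean correlation 0.0514, 0.0184 to 0.103). Fits were tested on simulated data. Values over mice used exact permutation tests, with a pseudocount of 0.5 CPM on the log2 scale. Ratios of related genes used CPM per kilobase plus 0.01. Copies were sought as windows of 50 bases that occur elsewhere in the transcripts or genome.

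Alternatives were DESeq2 1.42.0 size factors and its test, limma 3.58.1 voom, total counts without a composition factor, library sizes without mitochondrial genes, other filters, no block, all 12 astrocyte libraries, leaving out each mouse and, added after seeing the data, pairs 1 and 3 or pairs 5 and 6 alone. At 8226701 to 14936552 counts per library, genes of a few CPM rest on few counts. Floors cover counting error only, and the interval of the genotype difference comes from the fit and includes the spread between mice.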

Additional observations from a re-analysis of the deposited data

Results flagged for a closer look

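Among 135 per-mouse values looked at in groups of 8, 4 had a mouse that stood apart from the other 7 by Dixon's criterion, which chance gives in about 1 in 20. For Gjb2, a connexin at low counts, the log2 difference was -0.31 in the Rag2-/- mouse of pair 6 and 3.34 to 4.49 in the others. For Panx1 the difference was -0.47 in the control mouse of pair 3 and -4.44 to -2.77 in the others. The median difference of the pyruvate and citric acid cycle list was 1.39 in the control mouse of pair 3 and 0.67 to 1.00 in the others. The median of the fatty acid oxidation list was 2.15 in the control mouse of pair 5 and 1.22 to 1.61 in the others.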

How the results depend on the processing

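Of 384 named genes called over 8 mice, 351 kept call and direction under every alternative but the splits by pairs. Under total counts, 6172 genes were higher in astrocytes and 1760 in oligodendrocytes (main 3302 and 2860), 3211 and 1001 in control mice (main 1708 and 1789), and 3011 and 986 in Rag2-/- mice (main 1910 and 1726). The sign turned there for Fgfr2 (0.41), Gprc5b (0.52), Gsk3b (0.53), Itgb1 (0.14), Scd2 (0.39) and Sod2 (0.44). With pairs 1 and 3 only the counts were 1959 and 1890 over all their mice, 1045 and 896 in control and 1220 and 1020 in Rag2-/- mice, and with pairs 5 and 6 only 1911 and 1840, 1042 and 1120, and 997 and 965, with fewer mice in each. The DESeq2 test gave 2730 genes higher in astrocytes in control and 3127 in Rag2-/- mice. Leaving out each mouse moved the genes higher in oligodendrocytes of control mice to between 1186 (without control replicate 5) and 1804, 1194 without control replicate 6. The markers left in the other type's libraries were 10.1% and 16.8% on the TMM scale in place of 6.43% and 24.5%, the first ± 4.47 and the second ± 4.07 SD.

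Between genotypes, the DESeq2 test called 4 genes with a larger difference in Rag2-/- mice (Notch3, Zfp219, 4930578M01Rik and A930006L05Rik) and 1 with a smaller one (Dnmt3b). With no filter 1 was larger (mt-Rnr2) and 2 were smaller (Ext2 and Hbb-bs), and these 2 were also smaller with pairs 1 and 3 only. Hbb-bs held 2787 counts in the astrocyte library of the control mouse of pair 1 and at most 68 in any other library. Leaving out each mouse gave 0 to 1 smaller, the 1 without control replicate 3 (Hbb-bs). The cause was not tested.

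Without the replicate block, with sex and genotype as terms, 3086 genes were higher in astrocytes and 3228 in oligodendrocytes, 48.9% of calls toward astrocytes, and 5 members (Acads, Aldoa, Boc, Mthfd2 and Pfkfb3) lost their call. Of the members called, 20 lost the call on leaving out 1 mouse or another, among them Got1, Got2, Elovl1, Elovl6, Slc6a9, Mthfd2, Aldoa and Itgb1. Depth limits genes of a few CPM, and lane, cell type and order of panning cannot be told apart.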
